A study of Mus musculus with 20 samples.

Results

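The genes described here are the 10 genes of the count table that flank Mcu on mouse chromosome 10 and were chosen by symbol: P4ha1, Pla2g12b, Oit3, Dnajb12, Ddit4, Anapc16, Ascc1, Spock2, Chst3 and Psap. They are 10 of 21963 gene entries, and their expression did not enter the choice. RNA was sequenced from bone marrow-derived macrophages (BMDMs), which are marrow cells grown into macrophages for 7 days in medium conditioned by L929 fibroblasts, from mice 15 to 25 weeks old. The 20 libraries comprised 4 of untreated WT cells, 5 of WT cells given zymosan for 3 h, 4 of WT cells given zymosan for 3 h with BAPTA-AM at 10 µM, 4 of untreated Mcu-/- cells and 3 of Mcu-/- cells given zymosan for 3 h. Zymosan, a yeast cell wall particle that macrophages engulf, was used at 2 particles per cell, and BAPTA-AM enters cells and binds calcium ions. The study's methods name purchased C57BL/6 mice, but do not state separately the strain of the WT mice used beside Mcu-/- mice. Mcu-/- cells came from mice with a floxed Mcu gene and a Cre recombinase driven by the Cx3cr1 promoter, so deletion takes place in cells that have used this promoter, and whether WT mice carried the Cre or a floxed allele is not given in the sources used here. No cells were sorted, and zymosan with BAPTA-AM was applied to WT cells alone.

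Genes that lie beside a targeted gene stay linked to it when a line is bred. Around an engineered locus, neighbours can therefore carry alleles of the strain in which the locus was altered, and they can also respond to inserted or deleted sequence. Mcu encodes the pore of the mitochondrial calcium uniporter, through which calcium ions enter the mitochondrial matrix. Its neighbours have unrelated roles. P4ha1 is a catalytic subunit of the collagen prolyl 4-hydroxylase and a target of hypoxia-inducible factors. Psap encodes prosaposin, the precursor of the saposins that help lysosomal enzymes degrade sphingolipids. Ddit4 (REDD1) restrains the growth kinase complex mTORC1, Dnajb12 is a co-chaperone of the endoplasmic reticulum membrane, Anapc16 is a subunit of the anaphase-promoting complex, and Ascc1 belongs to the ASC-1 complex. Chst3 sulfates chondroitin chains, Spock2 encodes the proteoglycan testican-2, Oit3 encodes a secreted protein with a zona pellucida domain, and Pla2g12b is a member of the secreted phospholipase A2 family best known from liver.

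In the mm10 build, Mcu spans chr10:59446984-59616692 on the minus strand. P4ha1 (chr10:59323296-59373304, plus strand), Pla2g12b (chr10:59403660-59421976, plus strand) and Oit3 (chr10:59422958-59441778, minus strand) lie on one side, and Oit3 begins 5.2 kb from the Mcu span. The other 7 lie beyond its opposite end, in the order Dnajb12 (chr10:59879556-59899302, plus strand), Ddit4 (chr10:59949669-59951834, minus strand), Anapc16 (chr10:59987409-60003135, minus strand), Ascc1 (chr10:60002805-60099988, plus strand), Spock2 (chr10:60106219-60135198, plus strand), Chst3 (chr10:60181532-60219260, minus strand) and Psap (chr10:60277627-60302597, plus strand). Psap begins farthest away, at 660.9 kb. The models of Anapc16 and Ascc1 overlap head to head over 331 bp, in which 0 exonic bases are shared.

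Sequences ahead of annotated starts were read for 9 of the 10 genes from RefSeq (GRCm38.p6, the mm10 assembly), and Oit3 was missing from that table. 4 short motifs were searched on both strands in 11 windows of 300 bases, each from 250 bases before a start to 50 after it. They were ACGTG, a form of the core that hypoxia-inducible factors bind, and CACGTG, the E-box bound by factors such as TFEB and MYC and a longer form of the first. The others were TGACTCA, the AP-1 site, and TTGCATCA, which resembles the sites of ATF4 with C/EBP. Other forms of these sites were not searched, so the counts below cover these exact motifs only. ACGTG occurred in 4 of the 11 windows (P4ha1, Dnajb12, Ddit4 and Spock2) against 19.6% of all 32851 windows of this length. TGACTCA occurred in 1 window, that of Psap, against 5.20% of all windows. CACGTG and TTGCATCA, held by 7.15% and 0.895% of all windows, occurred in 0 of the 11. The 250 bases before the starts of P4ha1, Ddit4 and Psap are printed 5′ to 3′ because these genes responded to zymosan or to genotype below, with matches to ACGTG or TGACTCA in capitals. For Ddit4 the capitals read ACGTG. For P4ha1 and Psap the match lies on the opposite strand, so the capitals read as its reverse complement, CACGT and TGAGTCA. The 191 bases between the divergent starts of Anapc16 and of a second transcript of Ascc1 are printed because both genes fell in the same comparison. They hold no match and so no capitals.
P4ha1 (chr10:59323046-59323295, plus strand): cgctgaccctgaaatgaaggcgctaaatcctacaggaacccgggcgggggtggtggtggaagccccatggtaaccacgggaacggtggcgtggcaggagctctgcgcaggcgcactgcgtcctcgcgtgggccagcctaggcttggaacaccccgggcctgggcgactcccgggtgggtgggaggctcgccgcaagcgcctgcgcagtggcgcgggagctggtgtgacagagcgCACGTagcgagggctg
Ddit4 (chr10:59951771-59952020, minus strand): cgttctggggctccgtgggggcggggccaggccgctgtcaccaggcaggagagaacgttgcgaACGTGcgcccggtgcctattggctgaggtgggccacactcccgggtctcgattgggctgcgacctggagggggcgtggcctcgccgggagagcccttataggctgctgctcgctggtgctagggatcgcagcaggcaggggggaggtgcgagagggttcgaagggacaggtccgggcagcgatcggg
Psap (chr10:60277378-60277627, plus strand): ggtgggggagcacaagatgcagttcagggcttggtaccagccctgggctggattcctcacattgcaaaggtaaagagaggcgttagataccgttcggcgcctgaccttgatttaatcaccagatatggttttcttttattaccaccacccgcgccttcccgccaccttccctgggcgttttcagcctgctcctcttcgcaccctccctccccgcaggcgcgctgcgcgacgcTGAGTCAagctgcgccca
Anapc16 (chr10:60003136-60003326, minus strand): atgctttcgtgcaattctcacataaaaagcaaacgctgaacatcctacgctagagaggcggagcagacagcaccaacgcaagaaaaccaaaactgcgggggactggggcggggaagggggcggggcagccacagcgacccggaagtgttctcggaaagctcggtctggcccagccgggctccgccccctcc

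Libraries held 14420402 to 23954552 counts. 1 library stood apart before any comparison. Untreated Mcu-/- replicate 4 differed from the other 3 of its group by a chi-square per gene of 216.9 to 225, whereas the other 28 replicate pairs gave 1.605 to 6.53, and the biological coefficient of variation was 12.4% with it and 3.56% without it. Results that rest on it are therefore given with and without it. Macrophage markers (8 genes, all detected in every group) summed to 13360 to 13740 CPM (normalised counts, scaled to a TMM-adjusted library size of 1000000) in untreated WT cells, 16080 to 16390 in WT cells with zymosan and 10410 to 10770 in Mcu-/- cells with zymosan, and to 8556 in replicate 4. The labels call the samples biological replicates, and p-values measure the spread between these cultures. In edgeR this spread is shared over all 20 libraries, so replicate 4 enters it in every comparison, also in those without its group. In bulk RNA, fewer cells of a type and less RNA per cell cannot be told apart.

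Mcu itself fell in Mcu-/- cells without vanishing, in counts that cover all its exons, whichever the deletion removes. Untreated, it stood at 8.36, 6.49, 7.66 and 6.84 CPM in WT and 2.85, 3.77, 2.63 and 4.05 CPM in Mcu-/- cells (log2 fold change -1.14, SE 0.13, adjusted p = 1.631e-04, edgeR). With zymosan it ranged from 6.10 to 7.23 CPM in WT and from 3.62 to 3.98 CPM in Mcu-/- cells (log2 fold change -0.82, SE 0.14, adjusted p = 9.611e-05, edgeR). The groups did not overlap in either treatment.

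Among the 10 flanking genes, 8 had enough counts to be tested. Per kb of exon, mean levels in untreated WT cells were 1814 CPM for Psap, 23.2 for P4ha1, 10.8 for Dnajb12, 9.72 for Ddit4, 8.12 for Ascc1, 5.53 for Anapc16, 0.298 for Oit3 and 0.285 for Chst3. Library values overlapped between Dnajb12 and Ddit4, between Ddit4 and Ascc1, and between Oit3 and Chst3, so the order of those neighbours was not set beyond the spread. Pla2g12b had 0 counts in all 20 libraries, which allows up to 0.00728 CPM over all libraries together (a limit of 3 counts in their sum, counting error only). Spock2 had 20 counts in all, spread over 12 libraries with at most 4 in any, of which 15 were in WT and 5 in Mcu-/- libraries. No fold change is given for either.

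In untreated cells, 0 of the 8 tested genes differed between genotypes (edgeR, adjusted p below 0.05 over all 11707 tested genes), against 0.35% of all tested genes. By DESeq2, 0 were called as well, and 2 of the 8 (Chst3 and Psap) had an unadjusted edgeR p below 0.05. Values of all 8 overlapped between the groups, whereas 7.09% of all genes did not overlap. Without replicate 4, 0 of the 8 passed against 3.35% of all genes, with 1 unadjusted p below 0.05, for Psap, and 1 of the 8, P4ha1, did not overlap against 13.8% of all genes.

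Psap, the most abundant of the 8, stood at 4851, 5133, 5123 and 4800 CPM in untreated WT and 5452, 5012, 5155 and 7695 CPM in untreated Mcu-/- cells. P4ha1 stood at 98.1, 94.2, 95.6 and 94.6 CPM in WT and 91.3, 92.1, 91.2 and 220.0 CPM in Mcu-/- cells. For both genes the last Mcu-/- value, that of replicate 4, lay above every other untreated library. With that library the log2 fold changes were 0.23 (95% interval 0.03 to 0.43, adjusted p = 0.285, edgeR) for Psap and 0.37 (-0.04 to 0.78, adjusted p = 0.367) for P4ha1. Without it they were 0.06 (0.00 to 0.13, adjusted p = 0.297) and -0.06 (-0.14 to 0.01, adjusted p = 0.446). P4ha1 then lay below WT in every library, at 91.5 against 95.6 CPM in the means, with an exact two-sided permutation p of 0.0286, the smallest these group sizes allow.

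Anapc16 stood at 28.6, 25.8, 25.7 and 28.0 CPM in untreated WT and 27.3, 27.6, 26.8 and 19.5 CPM in untreated Mcu-/- cells. Ascc1 stood at 18.7, 17.9, 18.0 and 16.7 CPM in WT and 18.9, 18.3, 18.4 and 14.5 CPM in Mcu-/- cells. Both were lowest in replicate 4, and their values otherwise overlapped WT. Ddit4 stood at 16.2, 14.8, 19.1 and 18.1 CPM in WT and 18.5, 16.0, 16.9 and 9.84 CPM in Mcu-/- cells. Dnajb12 stood at 38.9, 36.3, 38.1 and 32.6 CPM in WT and 36.1, 34.6, 36.4 and 45.8 CPM in Mcu-/- cells. Again the replicate 4 value was the extreme one, low for Ddit4 and high for Dnajb12. Without replicate 4 the 95% intervals of the log2 fold changes were -0.10 to 0.12 for Anapc16, -0.08 to 0.18 for Ascc1, -0.16 to 0.18 for Ddit4 and -0.14 to 0.07 for Dnajb12.

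The 2 scarce genes were less precise. Chst3 stood at 1.92, 1.78, 1.76 and 1.96 CPM in untreated WT and 2.00, 1.74, 2.15 and 7.38 CPM in untreated Mcu-/- cells. Oit3, the nearest to Mcu of the 10 genes, stood at 0.725, 0.679, 1.24 and 0.673 CPM in WT and 0.592, 0.924, 0.840 and 2.26 CPM in Mcu-/- cells. Replicate 4 was highest for both. Without it the 95% intervals of the log2 fold changes were -0.31 to 0.48 for Chst3 and -0.71 to 0.53 for Oit3, so changes within these ranges are not excluded. Over the 8 genes the median absolute log2 fold change was 0.06 without replicate 4, the same to 2 decimals as over all tested genes, and 0.19 with it against 0.11.

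With zymosan, all 8 tested genes passed the test between genotypes, against 62.1% of all tested genes, so that most tested genes changed in the same comparison. P4ha1, Psap, Chst3, Oit3 and Dnajb12 rose in Mcu-/- cells (31.8% of all genes did) and Ddit4, Anapc16 and Ascc1 fell (30.3% did). Values did not overlap between the groups for any of the 8, nor for 64% of all genes. For each of them the exact two-sided permutation p was 0.0179, the smallest that 3 against 5 libraries allow. The median absolute log2 fold change was 0.73 over the 8 genes and 0.35 over all tested genes. Replicate 4 enters this comparison only through the shared spread. Without it all 8 passed again, as did 8182 of 11666 tested genes. For P4ha1 the SE of the log2 fold change was 0.20 with that library and 0.03 without it.

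**Figure D1:**
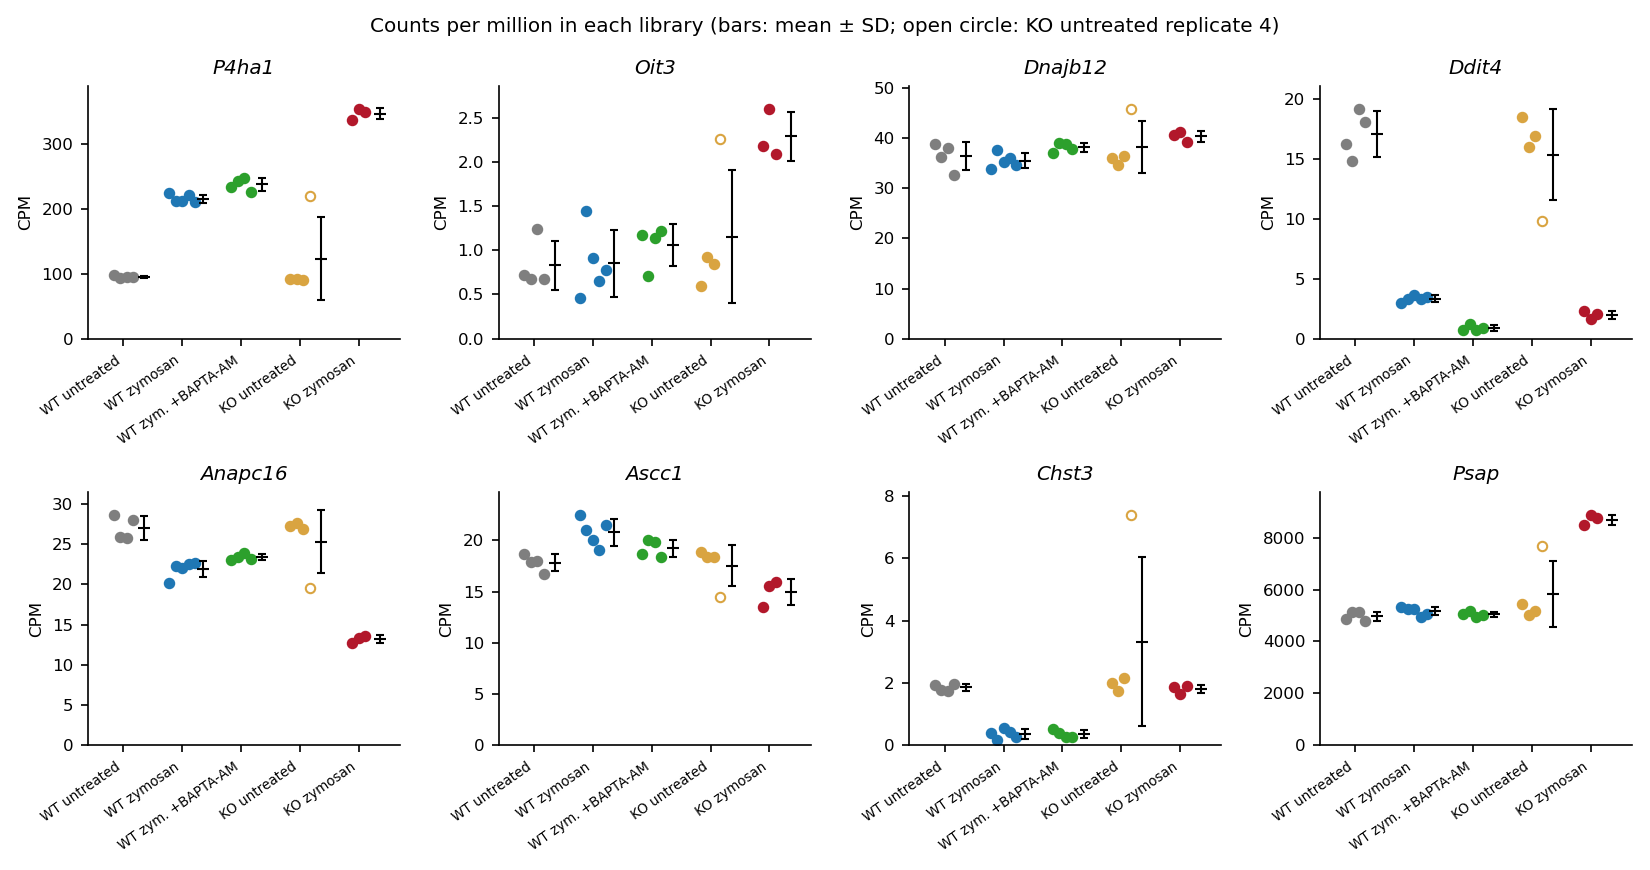
Normalised read counts (CPM, linear axes from 0) of the 8 tested genes in each library, 1 panel a gene, with the 5 groups along the horizontal axis (KO is Mcu-/-) and the mean ± SD beside the points. In the zymosan groups the 3 Mcu-/- points lie apart from the 5 WT points in every panel, and in the untreated Mcu-/- group 1 open circle, replicate 4, lies away from the other 3.

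Psap rose from 5328, 5234, 5247, 4956 and 5047 CPM in WT cells with zymosan to 8469, 8854 and 8745 CPM in Mcu-/- cells with zymosan. This was 1.68-fold (log2 fold change 0.75, SE 0.10, adjusted p = 3.915e-06, edgeR). P4ha1 rose from 224.4, 211.9, 211.7, 221.1 and 210.8 CPM to 338.0, 354.4 and 349.6 CPM, or 1.61-fold (log2 fold change 0.69, SE 0.20, adjusted p = 0.00613, edgeR). In both, the lowest Mcu-/- library lay far above the highest WT library. Dnajb12 moved little, from 33.9, 37.6, 35.3, 36.1 and 34.7 CPM to 40.7, 41.3 and 39.1 CPM, or 1.14-fold (log2 fold change 0.18, SE 0.07, adjusted p = 0.0415, edgeR). Its call was lost in 10 of 27 alternative analyses, with adjusted p between 0.00201 and 0.117 over all of them.

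Chst3 and Oit3 had the largest rises of the 8 and the fewest counts. Chst3 stood at 0.399, 0.155, 0.561, 0.438 and 0.277 CPM (3 to 11 counts) in WT and at 1.88, 1.64 and 1.89 CPM in Mcu-/- cells, or 4.87-fold with a 95% interval on the log2 scale of 1.26 to 3.31 (adjusted p = 5.835e-04, edgeR). Oit3 stood at 0.456, 1.45, 0.918, 0.657 and 0.776 CPM in WT and at 2.18, 2.60 and 2.09 CPM in Mcu-/- cells, or 2.66-fold with an interval of 0.63 to 2.19 (adjusted p = 0.003129, edgeR). The intervals are wide, but the Mcu-/- libraries were above every WT library for both genes. Without replicate 4 in the fit the intervals were 1.71 to 2.85 for Chst3 and 0.87 to 1.93 for Oit3.

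The 3 genes that fell are consecutive in the order of the 10 along the chromosome. Anapc16 went from 20.2, 22.3, 22.0, 22.5 and 22.6 CPM in WT to 12.7, 13.3 and 13.6 CPM in Mcu-/- cells, or 0.603-fold (log2 fold change -0.73, SE 0.09, adjusted p = 3.39e-06, edgeR). Ascc1 went from 22.4, 21.0, 20.04, 19.1 and 21.5 CPM to 13.5, 15.5 and 15.9 CPM, or 0.722-fold (log2 fold change -0.47, SE 0.08, adjusted p = 1.126e-04, edgeR). These are the head-to-head genes whose shared start region is printed above. Ddit4 went from 2.96, 3.31, 3.67, 3.29 and 3.49 CPM to 2.30, 1.64 and 2.09 CPM, or 0.601-fold (log2 fold change -0.74, SE 0.21, adjusted p = 0.005776, edgeR), on top of a far larger fall with zymosan in both genotypes.

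**Figure D2:**
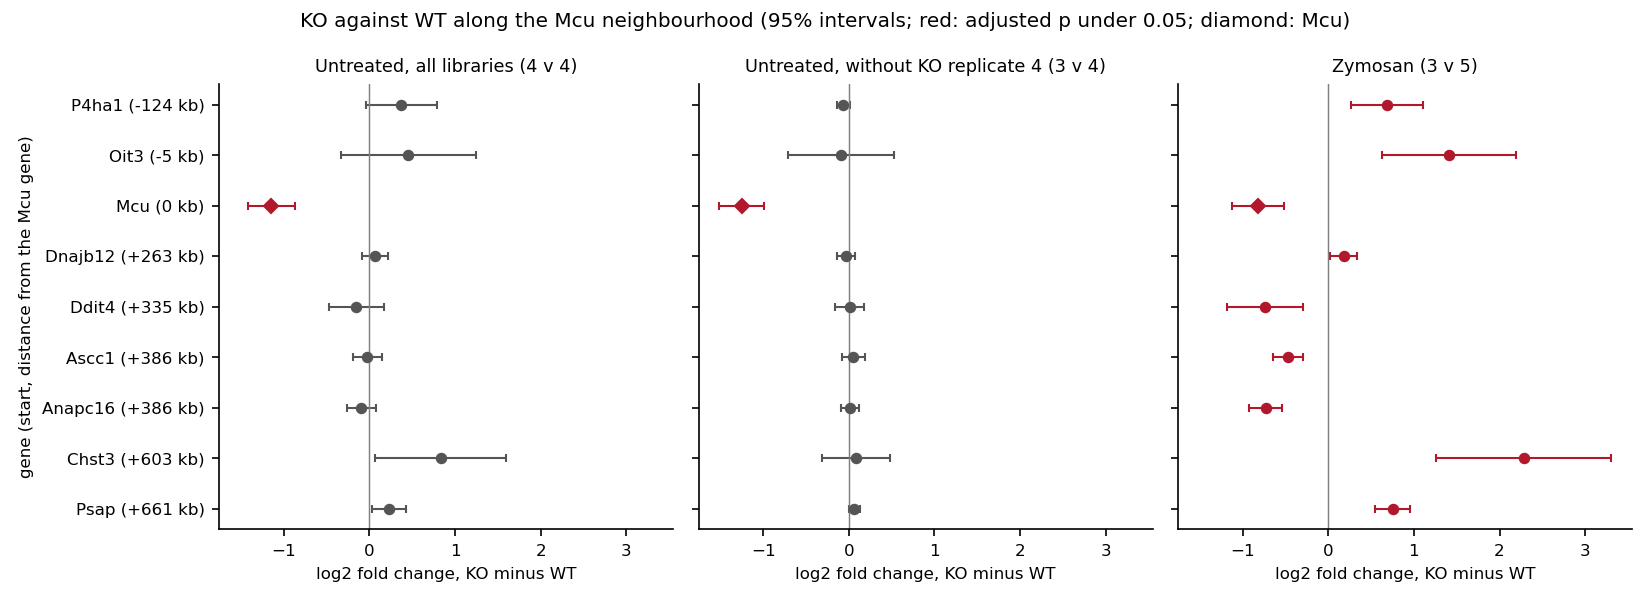
Log2 fold change, Mcu-/- (KO) minus WT, with 95% intervals on the horizontal axis, for the 8 tested flanking genes and Mcu in rows ordered by position, with the distance of each start from Mcu in kb. The panels are untreated cells with and without replicate 4 and cells with zymosan. No flanking gene is red (past the test) in the first 2 panels, and all 8 are in the last, 5 above and 3 below 0.

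Other markers moved with genotype in the same zymosan libraries. The 5 stroma markers summed to 44.03 to 52.34 CPM in Mcu-/- cells with zymosan and 4.657 to 6.63 CPM in WT cells with zymosan. Col1a1, which encodes a collagen chain, stood at 18.3 to 25.6 against 1.81 to 2.50 CPM, while Dcn and Pdgfra, 2 further stroma markers, were near 0 at 0.177 to 0.398 and 0.0565 to 0.177 CPM in the Mcu-/- libraries. B cell markers summed to 13.00 to 13.58 against 30.76 to 37.44 CPM, neutrophil markers to 0.4974 to 0.7653 against 3.231 to 5.267 CPM, and macrophage markers were lower as given above. Dendritic cell markers summed to 10.36 to 11.47 against 9.047 to 9.646 CPM, T cell markers to 0.5887 to 0.7912 against 0.8214 to 1.652 CPM and erythroid markers to 0.1177 to 0.199 against 0.153 to 0.6572 CPM. In the Mcu-/- libraries with zymosan, the markers at 0 included Elane, Cd3d, Cd3g and Alas2. The part of these cell type differences in the results for the flanking genes was not tested.

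Replicate 4 of the untreated Mcu-/- cells differed from its group in the direction of the zymosan difference. On the log2(CPM + 1) scale it differed from the mean of the other 3 by 1.26 for P4ha1, 0.87 for Oit3, 0.35 for Dnajb12, 1.502 for Chst3 and 0.56 for Psap, and by -0.74 for Ddit4, -0.46 for Anapc16 and -0.33 for Ascc1. The difference of means between Mcu-/- and WT cells with zymosan on the same scale was 0.68, 0.85, 0.18, 1.04 and 0.75 for the first 5 and -0.53, -0.69 and -0.45 for the others. The signs were the same for 8 of 8 genes, and for 78.4% of all 11707 tested genes. Mcu did not share this direction, at 0.32 in replicate 4 and -0.69 between genotypes with zymosan. Stroma markers summed to 28.33 CPM in replicate 4, as against 2.672 to 4.109 CPM in untreated WT cells and 1.095 CPM in the lowest untreated Mcu-/- library. This sum came from collagen genes, with Col1a1 at 13, Col1a2 at 12.1 and Col3a1 at 3.06 CPM in replicate 4. Dcn and Pdgfra were near 0 there, at 0.0397 and 0.0794 CPM. B cell markers summed to 18.77 CPM in replicate 4, as against 53.57 to 55.81 CPM in untreated WT cells. The part of these markers in the shift was not tested.

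**Figure D3:**
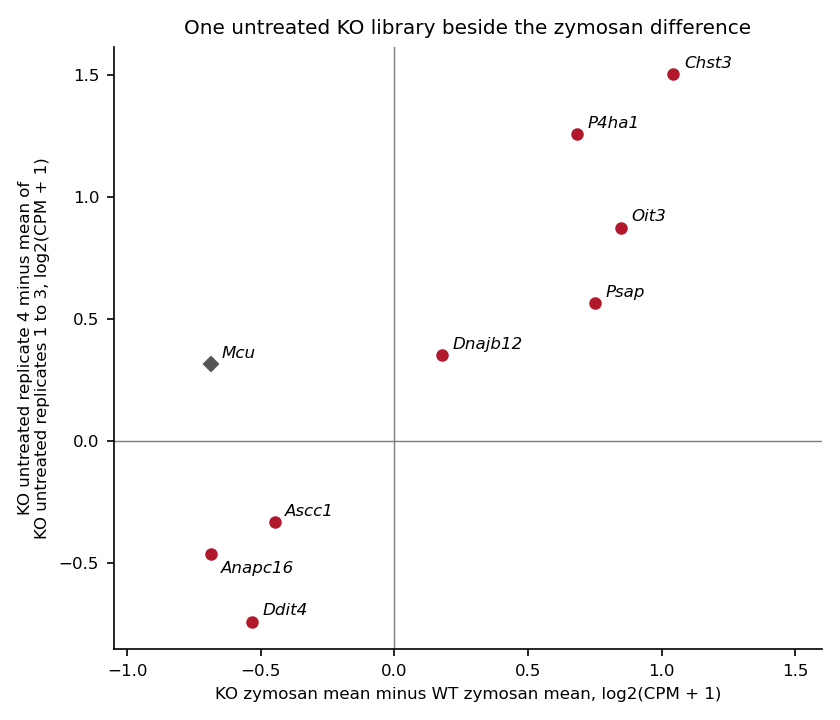
Difference of untreated Mcu-/- replicate 4 from the mean of the other 3 libraries of its group (vertical axis) against the difference of Mcu-/- and WT means with zymosan (horizontal axis), both in log2(CPM + 1), 1 point a gene. The 8 flanking genes (circles) lie in the 2 quadrants where both differences share their sign, and Mcu (diamond) does not.

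The neighbourhood as a whole was then set beside the rest of the genome. Within 1 Mb of Mcu, 20 annotated genes of the table have their start, 12 of them were tested, and 8 of the 12 are the genes above. Untreated, 0 of the 12 passed edgeR's test, with 2 at an unadjusted p below 0.05, against 0.351% of genes on other chromosomes. Without replicate 4, 0 of the 12 passed, with 1 at an unadjusted p below 0.05, against 3.39% elsewhere. With zymosan, 10 of 12 (83.3%) passed, against 28 of 39 (71.8%) over 1 to 5 Mb, 73 of 112 (65.2%) over 5 to 20 Mb, 258 of 398 (64.8%) on the rest of chromosome 10 and 61.9% on other chromosomes. Without replicate 4 in the fit, 11 of 12 (91.7%) passed with zymosan, against 69.9% on other chromosomes. The median absolute log2 fold change was 0.71 within 1 Mb and 0.35 on other chromosomes. These are counts over few genes that are not replicates of one another, and no test of the difference was made.

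**Figure D4:**
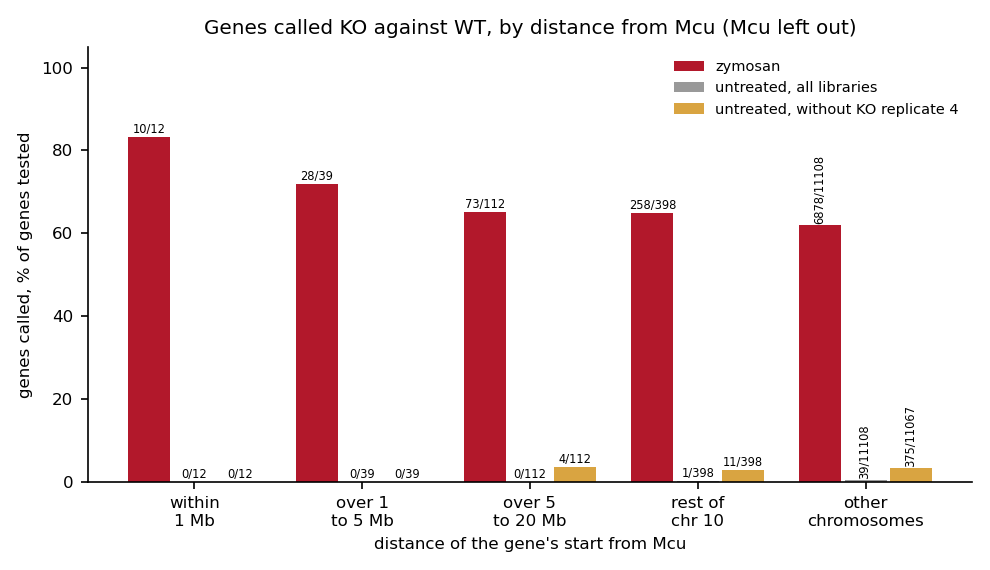
Percent of tested genes that passed the test between Mcu-/- and WT cells (bars, from 0) by distance of the gene's start from Mcu, with zymosan and untreated with and without replicate 4, with the number passed and tested above each bar. The bar within 1 Mb stands at 0 of 12 untreated and 10 of 12 with zymosan, where genes on other chromosomes stand at 61.9%.

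Other genes within 1 Mb were tested beside the flanking genes. With zymosan, Ccdc138, which encodes a coiled-coil protein, fell (log2 fold change -0.89, adjusted p = 0.0169, edgeR), and so did Vsir, which encodes the immune checkpoint receptor VISTA (-0.51, adjusted p = 4.72e-05). Sowahc had a log2 fold change of -0.30 (adjusted p = 0.12). For Vsir the untreated difference was -0.07 with replicate 4 and 0.04 without it, and neither passed.

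The response to zymosan was compared between them. In WT cells, P4ha1 rose 2.26-fold (log2 fold change 1.18, adjusted p = 2.167e-05, edgeR) and Ascc1 rose by 0.22 (adjusted p = 0.01312), while Ddit4 fell by 2.35 (adjusted p = 1.351e-10), Chst3 by 2.32 (adjusted p = 1.489e-04) and Anapc16 by 0.30 (adjusted p = 0.002328). That made 5 of 8, against 69.1% of all genes. Psap, Dnajb12 and Oit3 had log2 fold changes of 0.05, -0.04 and 0.04 and did not pass.

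In Mcu-/- cells, 6 of 8 passed (73.8% of all genes). P4ha1 rose by 1.49, Oit3 by 0.99 (adjusted p = 0.02145) and Psap by 0.58 (adjusted p = 5.033e-05) on the log2 scale. Ddit4 fell by 2.93, Anapc16 by 0.94 and Ascc1 by 0.22 (adjusted p = 0.02635), the last in the direction opposite to WT. Chst3 had a log2 fold change of -0.87 (adjusted p = 0.0621) and Dnajb12 of 0.08. Without replicate 4, 7 of 8 passed (81.5% of all genes). P4ha1 then rose by 1.92, Oit3 by 1.53, Psap by 0.74 and Dnajb12 by 0.18, and Chst3 stood at -0.12 (adjusted p = 0.617). These directions are relative to the bulk of genes. With library totals in place of TMM, the median log2 fold change of all genes moved from -0.04 to -0.54 in WT and from -0.06 to -0.58 in Mcu-/- cells. On that scale the WT values became -0.27 for Ascc1, -0.45 for Oit3, -0.44 for Psap and -0.53 for Dnajb12, which then passed (adjusted p = 1.03e-07, edgeR). In Mcu-/- cells Dnajb12 became -0.44, Chst3 -1.37 (adjusted p = 0.00363, passing), and Psap 0.06 (adjusted p = 0.524) and Oit3 0.49 (adjusted p = 0.215), so that the rises of Psap and Oit3 no longer passed.

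The difference of the responses, Mcu-/- minus WT, was tested as an interaction, in which 35.2% of all genes passed. It passed for 3 of the 8, Anapc16 (log2 difference -0.64, SE 0.12, adjusted p = 8.437e-04, edgeR), Ascc1 (-0.45, SE 0.11, adjusted p = 0.006196) and Psap (0.52, SE 0.13, adjusted p = 0.006335). Without replicate 4 it passed for all 8, against 60.3% of all genes. The differences were then 0.75 for P4ha1 (adjusted p = 1.69e-16), 1.49 for Oit3 (0.00162), 0.22 for Dnajb12 (0.00939), -0.74 for Ddit4 (9.26e-04), -0.74 for Anapc16, -0.52 for Ascc1, 2.20 for Chst3 and 0.69 for Psap. For P4ha1 the difference was 0.32 with replicate 4 (adjusted p = 0.401), so the size of its estimate turned on that library.

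Calcium chelation was compared in WT cells given zymosan. Of the 8 genes, 1 passed with BAPTA-AM, against 12.8% of all genes. Ddit4 fell from 2.96, 3.31, 3.67, 3.29 and 3.49 CPM to 0.693, 1.26, 0.763 and 0.860 CPM (log2 fold change -1.90, SE 0.22, adjusted p = 1.247e-05, edgeR). The 4 BAPTA-AM libraries lay below all 5 without it (exact permutation p = 0.00794, the smallest these sizes allow). P4ha1 stood at 234.0, 243.9, 247.7 and 226.6 CPM with BAPTA-AM, above all 5 libraries without it, at a log2 fold change of 0.14 (adjusted p = 0.7245). Without replicate 4, a library of neither group that enters through the shared spread, the value of P4ha1 was again 0.14 and passed (adjusted p = 2.795e-04), with 31.8% of all genes. The other 6 did not pass with or without that library.

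Genes that work with the flanking genes, located elsewhere, were followed in 10 lists of 92 tested genes in all. Between genotypes with zymosan 42 of the 92 were higher and 20 lower, and 62.1% of all genes passed in either direction. In untreated cells 1 of the 92 passed and 28 had an unadjusted p below 0.05 (0.35% and 14.9% of all genes). It was Spock1 (testican-1), with 8 to 15 counts a library in untreated WT and 0 to 1 in untreated Mcu-/- cells (adjusted p = 6.19e-04, edgeR). Without replicate 4, Spock1, Serpinh1, Herpud1 and Asns passed, the last of these upward, and 20 of the 92 had an unadjusted p below 0.05 (3.35% and 14.5% of all genes).

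Among partners of P4ha1, 8 of 9 tested collagen-modifying enzymes were higher in Mcu-/- cells with zymosan and 0 lower (median log2 fold change 0.72, 0.02 over all genes). They included Serpinh1 (2.92), the collagen chaperone HSP47, P4ha2 (2.50), another catalytic prolyl 4-hydroxylase subunit, P3h1 (1.18) and Plod2 (1.03). Collagen genes themselves were among the stroma markers that were higher in the same libraries. Of 15 hypoxia-responsive genes, 9 were higher and 2 lower (median 0.73), with P4ha2 in both lists, Egln3 at 2.27 and Adm at 2.01, while Ndrg1 fell by 2.57. For Psap, 6 of 11 sphingolipid hydrolases and activators were higher and 3 lower (median 0.38), among them the lysosomal enzymes Glb1 (0.54) and Neu1 (0.46).

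Partners of Ddit4 were mixed. Of 11 mTORC1 regulators 2 were higher and 3 lower (median 0.00), with Deptor falling by 2.44, Txnip by 1.25 and Sesn1 by 0.69 and Rptor, the mTORC1 scaffold, rising by 1.04. Of 10 amino acid and endoplasmic reticulum stress genes, which include regulators of Ddit4, 3 were higher and 1 lower (median 0.19), or 5 and 3 without replicate 4, with Ddit3 at 1.32, the chaperone Hspa5 at 0.77 and Herpud1 at -0.85. Among 8 class B HSP40 chaperones, relatives of Dnajb12, 5 were higher and 2 lower (median 0.41), with Dnajb9 at 0.93 and Dnajb5 at -0.81.

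Partners of Anapc16 moved in both directions, and those of Ascc1 opposite to it. Of 15 subunits and activators of the anaphase-promoting complex, 3 were higher and 6 lower (median 0.01). Cdc20, its mitotic activator, fell by 3.23, Anapc11 by 0.60 and Anapc15 by 0.50, and Anapc1 rose by 0.21. The 3 partners of Ascc1 were all higher while Ascc1 fell, Ascc3 by 1.05 (SE 0.25, adjusted p = 0.00147, edgeR), Trip4 by 0.72 and Ascc2 by 0.40. Of 6 chondroitin sulfotransferases and testicans, relatives of Chst3 and Spock2, 3 were higher and 1 lower (median 0.51), with Chst14 at 0.90 and Chst7 at -0.92. Of 6 uniporter genes other than Mcu, 1 was higher and 2 lower, with Micu2 at 0.18, Smdt1 at -0.42 and Mcub at -1.54.

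With BAPTA-AM in WT cells, 3 of these lists held several genes that passed, where 12.8% of all genes did (31.8% without replicate 4). Of the hypoxia-responsive genes, 6 were higher and 1 lower, among them Egln3 (1.08), Slc2a1 (0.93) and Bnip3 (0.80), with the hexokinase gene Hk2 at -0.46. Of the mTORC1 regulators, 4 were higher and 1 lower, with Txnip at 0.72 and Sesn2 at -0.66. Of the stress genes, 1 was higher and 3 lower, with Chac1 at -1.13 and Ppp1r15a at -0.83. Without replicate 4 the counts higher and lower were 10 and 2 for the hypoxia-responsive genes, 4 and 2 for the mTORC1 regulators and 3 and 6 for the stress genes, and 0 and 4 in place of 0 and 1 for the collagen-modifying enzymes. Sesn2, like Ddit4 an inhibitor of mTORC1, is in both of the last lists.

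The genes with the most similar profile over the 5 group means were other than the flanking genes themselves. Likeness was the Euclidean distance between mean-centred log2 values, with replicate 4 in its group mean, and is a description over 5 points. The nearest were Itpr2 (0.0572) and Slc25a20 (0.0626) to Psap, Ninj1 (0.15) and Cdyl2 (0.156) to P4ha1, and Srrd (0.0681) and Cars2 (0.0856) to Anapc16. For Ascc1 they were Tmed3 (0.0353) and Selenop (0.0471), and for Dnajb12 Fyttd1 (0.0332) and Ints1 (0.0362). Oit3 was nearest to Lars2 (0.13) and Edil3 (0.163), and Chst3 to Rnf144b (0.158) and Gdpd5 (0.424). Ddit4 had no near match, with Gm5113 at 0.721 and Tifab at 0.884. None of the flanking genes was among the nearest pair of another.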

How the data were processed

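The authors deposited 1 table of raw counts per gene: per the labels and the study's methods, reads were trimmed with cutadapt, mapped to mm10 with STAR and counted with HTSeq. Tool versions and the strand setting are not given in the sources used here. Samples were grouped by label. The 3 columns of Mcu-/- cells with zymosan carry the numbers 3 to 5 and are named so. In R 4.3.3, counts were filtered (filterByExpr), TMM-scaled and fitted over all 20 libraries with edgeR 4.0.16 (quasi-likelihood, 1 coefficient per group); adjusted p-values are Benjamini-Hochberg over the 11707 genes tested in each of 6 comparisons. DESeq2 1.42.0 was an alternative. On simulated counts for Mcu-/- against WT with zymosan (11253 genes tested), 163 of 194 genes changed by a log2 value of 1 were recovered, with 13 false calls. The simulation changed only 200 genes and held no outlying library. In the real comparison 62.1% of genes passed, so these figures check the procedure and do not carry over to it. Positions are from GENCODE M21. 26 symbols had been turned into dates in the table, among them Sept10 near Mcu, which is not analysed here. Named genes are the members, Mcu, called genes within 1 Mb, uniporter genes, the 2 nearest profiles per member and up to 4 called genes per partner list. Some genes under this rule are not reported here. The members and lists were chosen with earlier results of these data known. Depth was 14420402 to 23954552 counts a library.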

Additional observations from a re-analysis of the deposited data

Results flagged for a closer look

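The spread of each tested flanking gene within groups of 4 or 5 libraries was checked with Dixon's ratio, the gap between an extreme library and its nearest neighbour as a share of the group's range. Of 32 pairs of gene and group, 9 passed the 95% critical value, where chance gives some 1 in 20 for independent pairs. The pairs share libraries and so are not independent, and the share over all tested genes was not computed. Of these 9, 6 were the same library, untreated Mcu-/- replicate 4, at 0.993 for P4ha1, 0.927 for Chst3, 0.904 for Anapc16, 0.882 for Ascc1, 0.838 for Dnajb12 and 0.836 for Psap. That library stood apart over all genes (chi-square per gene of 216.9 to 225), so its flags are not particular to the flanking genes. The other 3 were Oit3 in untreated WT replicate 3 (0.909), Oit3 in BAPTA-AM replicate 2 (0.861) and Anapc16 in WT zymosan replicate 1 (0.756). Oit3 had few counts in those libraries.

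The zymosan response differed between the genotypes by the interaction test for Anapc16 (-0.64 on the log2 scale), Ascc1 (-0.45) and Psap (0.52).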

How the results depend on the processing

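Over single genes and alternatives, 1383 values kept direction and side of the threshold, 26 lost a call, 14 gained one and 22 reversed. The zymosan calls of the flanking genes other than Dnajb12 held in every alternative run, and 0 of 8 were called untreated in every one. Genes called untreated numbered 41, and 25 with at least 10 counts in every library, 112 with DESeq2, 5 with only the groups compared, and 22 to 391 leaving out 1 library, the highest without untreated Mcu-/- replicate 4. Leaving out 1 library, the interaction gave 3414 to 7039 genes and 3 to 8 flanking genes, and BAPTA-AM 1036 to 3712 genes and 1 to 2 flanking genes, each highest without replicate 4; with only the groups compared BAPTA-AM gave 3529 and 2. Untreated, leaving out 1 library moved P4ha1 between -0.063 and 0.49, Oit3 between -0.089 and 0.72, Dnajb12 between -0.036 and 0.11, Ddit4 between -0.26 and 0.009, Anapc16 between -0.14 and 0.014 and Ascc1 between -0.061 and 0.052, each crossing 0 only without replicate 4. For WT with zymosan, Dnajb12 became 0.0007 with DESeq2 size factors, library totals gave -0.45 for Oit3, -0.27 for Ascc1, -0.44 for Psap and, newly called, -0.53 for Dnajb12 and -0.64 for Mcu, and Oit3 ranged from -0.24 to 0.30 leaving out 1 library. For Mcu-/- with zymosan, library totals gave -0.44 for Dnajb12 and -0.34 for Mcu, and Oit3 and Ascc1 each lost their call in 7 alternatives. With BAPTA-AM, library totals gave 0.0271 for Chst3 and 0.027 for Psap, and Chst3 ranged from -0.29 to 0.18 leaving out 1 library. Untreated Mcu lost its call in 1 alternative, the fit of only the groups compared (adjusted p = 0.0979, edgeR). Library totals were tried after seeing the data. The cause of these changes was not tested. Same-numbered libraries did not deviate together (correlations -0.055 to 0.059), and a replicate block gave 31 genes called untreated and 6701 with zymosan, 7 of them flanking genes, without Dnajb12. Depth limits Oit3, Chst3, Spock2 and Pla2g12b.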
